A study of Homo sapiens with 8 samples.

Results

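The enhancers described here are stretches of chromatin that carried H3K27ac, the acetylated histone mark of active regulatory DNA, in every library and lay away from all annotated transcript starts. On chromosomes 1 to 22, X and Y, overlapping peaks (by 1 bp or more) of the 4 H3K27ac ChIP-seq libraries were joined, which gave 15752 merged regions. A merged region was kept if each of the 4 peak lists had a peak in it, if it was under 2000 bp wide, and if its strongest summit was more than 3 kb from the start of every GENCODE transcript of any gene type on hg38. This left 722 shared distal enhancers, 4.58% of the merged regions and 7.00% of the 10317 regions with a peak in all 4 lists. The members were thus chosen by measured values, namely presence in each peak list, width and summit position, so that none of these is a finding. Just inside the distance limit were enhancers near IGSF9 (3007 bp) and IGF2 (3026 bp), and just outside it was a region near ZMIZ1 (2996 bp). Just inside the width limit were enhancers near CDC42EP1 (1922 bp) and ZC3H18 (1934 bp), and just outside it were regions near SOX4 (2033 bp) and STK11 (2114 bp).

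The cells were pancreatic progenitors (PPs) obtained from human embryonic stem cells of the established line MEL1, which in the study's methods is MEL1 INS GFP/W, a line with a GFP reporter in 1 copy of the insulin gene. Both groups were kept in EF6 medium (DMEM with B27, EGF, bFGF and the TGFβ inhibitor 616452). The control group received DMSO, the solvent, and the treated group 1 μM I-BET151 over 7 days. This compound blocks the bromodomains with which BET proteins bind acetylated lysine. Each group had 2 H3K27ac libraries. Nothing in the labels says that these came from separate cultures, and all of them came from a single cell line, so p-values measure only the spread between these libraries. The lists hold H3K27ac and no expression, and in a bulk sample fewer cells with a mark cannot be told apart from less mark per cell.

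Enhancers are bound by combinations of transcription factors, which recruit acetyltransferases such as p300 that deposit H3K27ac on the flanking nucleosomes. BET proteins read acetylated histones there and help to pass the signal on to the transcription machinery. In PPs, FOXA, GATA, ONECUT, PDX1 and NKX6-1 are among the factors known to act through distal enhancers. The nearest protein-coding start is used below only to name an enhancer, since an enhancer need not act on the nearest gene.

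Windows of 120 bp around the strongest summit of 10 enhancers are printed to show what the mark sat on: 2 of the 10 best-ranked enhancers, 2 of the 8 largest rises in fold, 2 of the 8 largest falls in fold, and 1 each for the pancreatic, Notch, growth factor and BMP lists described below. Within each of these sets they are the best-ranked whose window lay outside exons and held a match to at least 1 motif string. The sequence is the hg38 plus strand, 5′ to 3′, in lower case, and capitals mark matches on either strand to the motif strings given further down. No match says only that the letters of these strings are absent from the window.
PTGFRN enhancer, chr1:116879590-116879709: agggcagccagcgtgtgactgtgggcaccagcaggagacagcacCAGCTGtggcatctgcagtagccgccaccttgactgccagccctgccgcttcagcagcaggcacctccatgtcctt
SMNDC1 enhancer, chr10:110376098-110376217: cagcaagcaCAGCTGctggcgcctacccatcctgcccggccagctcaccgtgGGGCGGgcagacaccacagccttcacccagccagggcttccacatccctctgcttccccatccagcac
HDDC2 enhancer, chr6:125363536-125363655: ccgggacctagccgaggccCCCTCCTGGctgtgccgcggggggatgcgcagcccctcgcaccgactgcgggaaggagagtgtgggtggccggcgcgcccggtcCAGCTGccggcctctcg
BCR enhancer, chr22:23241222-23241341: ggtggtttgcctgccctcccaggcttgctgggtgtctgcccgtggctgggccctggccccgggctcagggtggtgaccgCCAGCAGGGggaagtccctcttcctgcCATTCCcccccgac
VSIR enhancer, chr10:71766256-71766375: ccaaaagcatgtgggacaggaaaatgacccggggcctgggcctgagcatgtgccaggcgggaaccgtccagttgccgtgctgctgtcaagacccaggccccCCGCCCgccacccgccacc
RIPK4 enhancer, chr21:41704020-41704139: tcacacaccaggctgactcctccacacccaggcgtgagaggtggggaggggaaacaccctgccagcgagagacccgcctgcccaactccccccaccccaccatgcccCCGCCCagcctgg
NR5A2 enhancer, chr1:200039338-200039457: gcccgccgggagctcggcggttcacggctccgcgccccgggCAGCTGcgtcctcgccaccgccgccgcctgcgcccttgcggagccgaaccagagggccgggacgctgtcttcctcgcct
HES1 enhancer, chr3:194141251-194141370: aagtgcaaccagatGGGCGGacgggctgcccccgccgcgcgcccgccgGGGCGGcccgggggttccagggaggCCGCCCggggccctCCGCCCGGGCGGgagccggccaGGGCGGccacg
SPRY4 enhancer, chr5:142357269-142357388: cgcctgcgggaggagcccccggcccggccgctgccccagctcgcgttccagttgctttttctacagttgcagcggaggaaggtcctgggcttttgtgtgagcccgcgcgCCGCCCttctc
ID3 enhancer, chr1:23554547-23554666: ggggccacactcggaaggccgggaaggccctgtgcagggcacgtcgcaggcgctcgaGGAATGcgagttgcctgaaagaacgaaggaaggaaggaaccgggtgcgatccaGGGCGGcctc

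The capitals show the E-box string CAGCTG in the PTGFRN, SMNDC1, HDDC2 and NR5A2 windows, and the SP/KLF string GGGCGG or its reverse complement in the SMNDC1, VSIR, RIPK4, HES1, SPRY4 and ID3 windows. The HES1 window held 6 SP/KLF matches. The HDDC2 and BCR windows each held a match to the short CTCF string, and the BCR and ID3 windows a match to the TEAD string.

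Depth worked out from the lists was 7.76 to 9.84 M ChIP reads per library, and the longest list was that of the deepest library, DMSO replicate 2. Of 12 PP marker genes, 10 had a peak within 3 kb of a start in all 4 lists, whereas RFX6 had one in some of the lists and PTF1A in none. Of the markers of other cell types, none of 9 endocrine, 5 neural, 4 endothelial and 3 blood markers had a peak in all 4 lists, against 1 of 7 pluripotent (LIN28A), 1 of 7 mesenchymal (PDGFRB) and 2 of 8 hepatic and intestinal markers (APOA1 and CDX2).

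The rule kept a minority of all distal regions. Of 2439 merged regions with a summit over 3 kb from every start, 754 (30.9%, Wilson 95% interval 29.1 to 32.8) had a peak in all 4 lists, before the limit on width. Of 12425 promoter regions, with a summit within 3 kb of a protein-coding start, 9115 (73.4%, 72.6 to 74.1) did. Intervals on shares cover counting error only. The 722 enhancers had a median distance of 9024.5 bp from any start and 17473.5 bp from a protein-coding start. From the latter, 237 lay 3 to 10 kb, 343 lay 10 to 50 kb, 85 lay 50 to 100 kb and 57 over 100 kb away. Their median width was 591.5 bp, from 311 to 1934 bp, against 795 bp at shared promoters and 348 bp at the 1685 distal regions missing from at least 1 list. The promoters had no limit on width, and joining peaks of more lists can widen a region, so this contrast is no finding.

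The strongest summit was in an intron of a protein-coding gene at 294 enhancers (40.7%, 37.2 to 44.3) and intergenic at 319 (44.2%, 40.6 to 47.8). A further 40 were in an exon of a protein-coding gene, 61 in an intron of another gene and 8 in an exon of another gene. Of the 294 in introns of coding genes, 276 had their host gene as the nearest gene. The distal regions that were not in all 4 lists were intronic in coding genes in 49.3% (46.9 to 51.7) and intergenic in 36.3% (34.0 to 38.6).

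The 722 enhancers had 531 nearest genes, of which 433 had 1 enhancer, 63 had 2 and 35 had 3 or more. At 208 enhancers (28.8%) another lay within 12.5 kb, and the longest such run held 10. PRDM16, which encodes a zinc finger transcription factor best known from brown fat, had 25 enhancers and CXXC5 had 9. CEBPA, GSE1, MYEOV, NTMT1, SMAD6 and VAV2 had 6 each.

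In base composition the enhancers lay between promoters and other distal regions. Over 501 bp around the summit the median GC content was 62.7%, against 69.5% at shared promoters, 60.3% at the distal regions not in all 4 lists and 49.1% in windows placed 20 kb from the enhancers. The ratio of observed to expected CpG had medians of 0.38, 0.83, 0.31 and 0.25 in the same order. It exceeded 0.6, as in CpG islands, at 217 enhancers (30.1%), against 91.8% of promoters, 11.4% of other distal regions and 5.02% of the displaced windows. Chromatin fragments rich in GC are recovered unevenly in ChIP-seq, and its part in these shares was not tested.

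Motif strings were searched on both strands within 250 bp of the summit. They were TGACTCA or TGAGTCA for AP-1, GGAATG for TEAD, TGTTTAC or TGTTTGC for FOXA, AGATAA for GATA factors, ACAATGG or ACAAAGG for SOX, GTTAATNAT for HNF1, ATCGATC as well as ATTGATC or else ATCAATA for ONECUT, TAATTA for homeobox factors, CAAAGTCCA or CAAAGTTCA for HNF4, GTGGGAA for RBPJ, CCANNAGGG or CCANNAGGT for CTCF, CCGGAAG for ETS, TGACGTCA for CRE, CAGCTG for the E-box and GGGCGG for SP/KLF. An HNF1 match can hold the homeobox string. The SP/KLF string was in 58.0% of enhancers, 86.2% of shared promoters, 43.4% of other distal regions and 17.6% of the 677 displaced windows. The E-box string was in 39.3% of enhancers, 25.9% of promoters, 41.7% of other distal regions and 23.3% of displaced windows. The AP-1 string, that of FOS and JUN dimers, was in 9.56% (7.62 to 11.9) of enhancers, 3.19% of promoters, 10.9% of other distal regions and 6.20% of displaced windows.

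For the GATA, homeobox and ONECUT strings the enhancers held fewer matches than the DNA beside them. The GATA string was in 9.70% of enhancers and 23.8% of displaced windows, and the homeobox string in 4.16% and 10.8%. The ONECUT string was in 2.63% of enhancers and 7.39% of displaced windows. The FOXA string was in 10.5% of enhancers and 11.7% of displaced windows, against 5.12% of promoters. The enhancers' GC content, 62.7% against 49.1% in the displaced windows, moves with these shares, and its part was not tested.

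**Figure D1:**
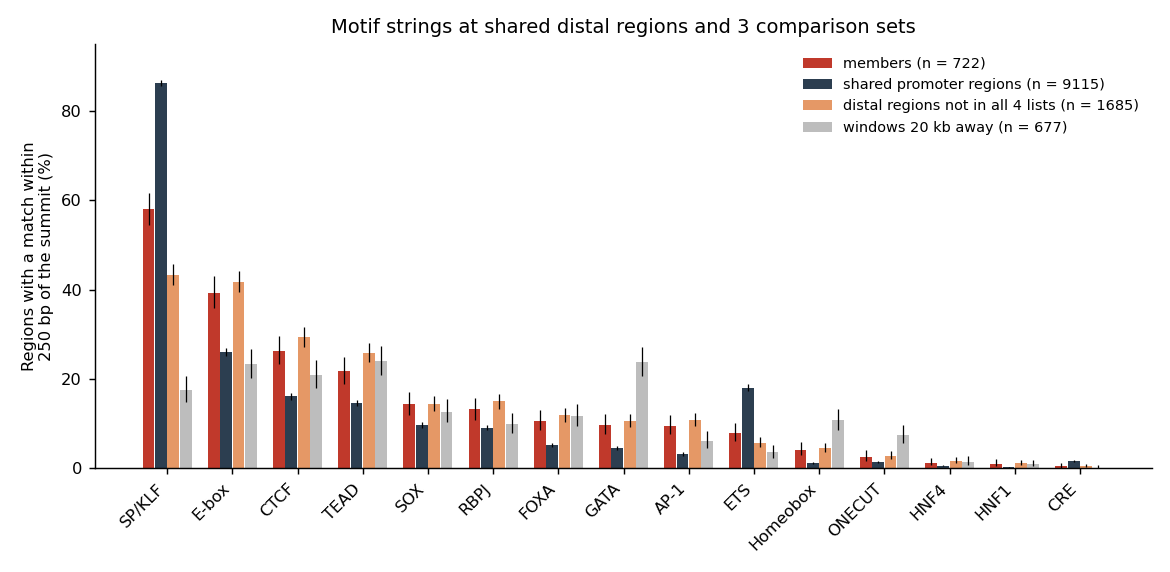
Percentage of regions with each of 15 motif strings within 250 bp of the strongest summit, for the shared distal enhancers, shared promoters, distal regions not in all 4 lists and windows 20 kb away, with Wilson 95% intervals. The enhancers sit near the other distal regions for most strings, and SP/KLF (58.0% against 43.4%) stands between these and promoters (86.2%).

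Acetylation is given below in 2 ways. The fold enrichment is the ratio over the local background that the authors' peak caller wrote for the strongest peak of a library in the region. The number of ChIP reads covering the summit was worked out from that fold and its p-value, and is printed as scaled reads, multiplied by 1 factor per library so that the median over the 10317 shared regions is equal. Changes are log2 differences, I-BET151 minus DMSO, centred on all shared regions, so that a change common to the whole genome would not be seen. Duplicates were removed, which sets a limit on the reads that can cover a base. The limit is not stated in the sources used here. It was inferred as 494 to 544 reads per library, assuming 1 read per start and strand, each extended to the width of the narrowest peak listed, and the highest read numbers worked out at any peak were 478 to 500, none above its library's limit. Of the enhancers, 10.2 to 20.9% exceeded 50% of it, against 33.5 to 59.9% of shared promoters. Under this assumption differences between strong summits in reads are compressed, at a larger share of promoters than of enhancers. The change after a correction for the inferred limit is given where it matters.

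The enhancers' median fold enrichment was slightly higher in both I-BET151 libraries than in both DMSO libraries, while their median scaled reads overlapped between the groups. Their median fold enrichment was 7.07 and 7.11 in the DMSO libraries and 7.42 and 7.23 in the I-BET151 libraries. Median scaled reads were 136 and 139 with DMSO, and 148 and 138 with I-BET151. At shared promoters, median folds were 6.04 and 6.74, then 6.69 and 6.80, and median scaled reads 238 to 239.

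Relative to the promoter median of the same library, the enhancers' median log2 fold was 0.23 and 0.08 higher with DMSO and 0.15 and 0.09 higher with I-BET151. The groups overlapped, and the difference of −0.03 had p = 1 (two-sided exact permutation test over libraries, in which 2 against 2 cannot go below 0.33). In reads the enhancers were lower than promoters in every library, by −0.82 and −0.78 with DMSO and −0.68 and −0.79 with I-BET151, a difference of 0.06 between groups (exact permutation p = 0.67). The local input level at the enhancers was −1.04 ± 0.08 relative to promoters with DMSO and −0.85 ± 0.03 with I-BET151 (SD, n = 2, log2 scale, difference 0.19, exact permutation p = 0.33). This level enters the fold as its denominator, and its part in the folds was not tested.

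The enhancers' peaks covered 458 and 436 kb in the DMSO lists and 456 and 421 kb in the I-BET151 lists. The groups overlapped, and the difference of −8.77 kb had p = 0.67 (exact permutation test). The summits were placed closely, with median distances of 18.5 to 23 bp between any pair of libraries, and of 20 and 21 bp between replicates.

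The 10 best-ranked enhancers, by mean rank of −log10 p over the lists, were 2 near ID2, 2 in KCNQ1, and 1 each near PTGFRN, SMNDC1, IGF2, MKNK2, ID3 and PRDM16. At the PTGFRN enhancer (chr1:116879375-116879916, intergenic, 30267 bp from the start), the window printed first above, the fold was 30.8 and 24.0 with DMSO and 28.7 and 39.0 with I-BET151. These groups overlapped. IGF2 encodes a fetal growth factor, and its enhancer (chr11:2143718-2144934, intronic) had 405 and 361 scaled reads with DMSO and 521 and 485 with I-BET151, a log2 change of 0.40 ± 0.09 (SE; adjusted p = 0.019). All of its I-BET151 values lay above its DMSO values in reads. Its folds ran the other way, at 12.1 and 12.4 with DMSO and 11.997 and 8.79 with I-BET151, with groups that did not overlap either (log2 change −0.33 ± 0.34, adjusted p = 0.76). The read call was lost without DMSO replicate 1 (adjusted p = 0.073) and without DMSO replicate 2 (adjusted p = 0.14).

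ID2 and ID3 encode inhibitors of basic helix-loop-helix factors and are known BMP targets. At the ID3 enhancer printed above (chr1:23553836-23555297, 4469 bp from the start), scaled reads were 425 and 377 with DMSO and 515 and 467 with I-BET151, a change of 0.29 ± 0.09 that did not pass (adjusted p = 0.054). Its summits were close to the limit on reads, and with the correction the change was 0.61 (adjusted p = 0.0046). The enhancer near SMNDC1, a splicing factor gene, rose by 0.35 ± 0.10 on the log2 scale (adjusted p = 0.033), or 0.78 with the correction. Its call, too, was lost when either DMSO library was left out.

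Changes of single enhancers were tested with limma across all shared regions with Benjamini-Hochberg adjustment. On fold enrichment, no enhancer was called higher and 2 of 722 were called lower with I-BET151, where 0% and 0.0582% of all 10317 shared regions were called. At an unadjusted p under 0.05, 67 enhancers (9.28%) were higher and 83 (11.5%) lower, against 5.10% and 5.92% of all shared regions. The groups did not overlap upward at 156 enhancers (21.6%), against 21% of all shared regions, and downward at 168 (23.3%), against 21.2%. The median difference between replicates was 0.40 with DMSO and 0.44 with I-BET151 on the log2 fold scale, against 0.33 and 0.35 at shared promoters.

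Reads at the summit were less variable, with median replicate differences of 0.11 and 0.15 on the log2 scale, against 0.08 and 0.09 at shared promoters. With reads, 214 of 720 enhancers (29.7%) were called higher with I-BET151 and 130 (18.1%) lower, against 19.1% and 13.5% of all 10311 shared regions with read numbers. With the correction for the inferred limit, 32.9% of enhancers were called higher and 17.2% lower, against 23.2% and 14.8% of shared regions. The groups did not overlap upward at 328 enhancers (45.4%), against 44.1% of shared regions, and downward at 207 (28.7%), against 28.9%. The number of calls depended on which library was left out. Such a test has 1 library in a group, so its spread comes from the other group's pair alone. I-BET151 replicates differed more than DMSO replicates. Calls lost or kept without a library, here and elsewhere in the text, thus do not show that a change rests on that library. Without DMSO replicate 1, 62 enhancers were called, 39 higher (5.42%, against 2.18% of all shared regions) and 23 lower (3.19% against 1.58%). Without DMSO replicate 2, 68 were called, 49 higher (6.80% against 2.16%) and 19 lower (2.64% against 1.40%). Without I-BET151 replicate 1 the test called 417, of which 216 were higher (30.0%, against 17.3% of all shared regions) and 201 lower (27.9% against 16.1%). Without I-BET151 replicate 2 it called 468, with 332 higher (46.0% against 27.1%) and 136 lower (18.9% against 16.1%), so that the balance of directions, too, depended on single libraries. All 344 enhancers called with the 4 libraries kept their direction in each of these tests. Where the groups do not overlap, leaving out 1 library cannot reverse the direction, so this is no support for the calls. The "called" of the following paragraphs refers to this test on reads.

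The 2 measures ranked the changes alike in part, with Pearson's r = 0.71 and a Spearman correlation of 0.70 across 720 enhancers, which are not independent replicates and share the same libraries. The sign was the same at 523. The reads were worked out from the folds and their p-values, so this likeness is partly built in and is no separate support. Read changes were broader at enhancers, with an SD of 0.48 against 0.30 at shared promoters. With the correction for the inferred limit the SDs were 0.59 and 0.41. Among regions with mean scaled reads between 101 and 204, which holds the middle 50% of enhancers, the SD was 0.53 at 358 enhancers and 0.36 at 2956 promoters. In this range 29.9% of enhancers were called higher and 24.9% lower, against 14.6% and 23.1% of promoters. Replicates also differed more at enhancers than at promoters, and the part of this in the broader changes was not tested. 

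**Figure D2:**
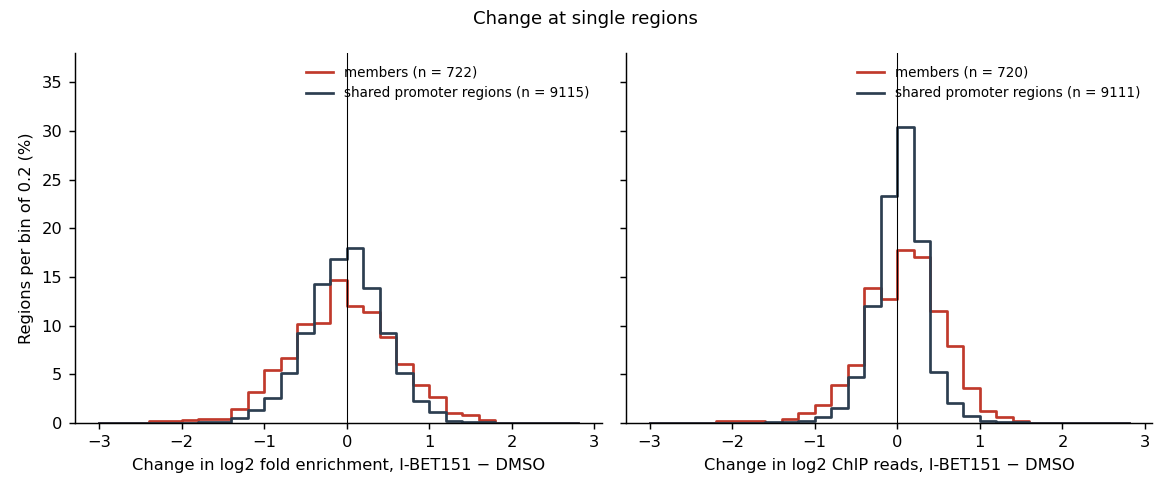
Distribution of the change with I-BET151 in log2 fold enrichment (left) and log2 reads at the summit (right), as the percentage of regions per bin, for the shared distal enhancers (labelled members, 722, of which 720 have reads) and shared promoters (9115, of which 9111 have reads). The enhancers are spread more widely on both scales, with an SD of 0.48 against 0.30 in reads.

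The 2 enhancers called lower on fold were near AP1M1, which encodes a subunit of a clathrin adaptor, and ARHGEF19, which encodes a guanine nucleotide exchange factor. The AP1M1 enhancer (chr19:16263354-16263981, intergenic, 29616 bp from the start) had folds of 13.5 and 19.4 with DMSO and 3.60 and 3.72 with I-BET151, a log2 change of −2.23 ± 0.33 (SE; adjusted p = 0.029). Its scaled reads were 313 and 282 with DMSO and 81.0 and 54.3 with I-BET151, 4.48-fold lower (log2 change −2.16 ± 0.18, adjusted p = 0.0012). The groups were far apart on both scales, and this was the largest fall in reads among the enhancers.

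The ARHGEF19 enhancer (chr1:16181770-16182341, intergenic, 24506 bp from the start) had folds of 14.0 and 13.6 with DMSO and 2.62 and 4.09 with I-BET151 (log2 change −2.16 ± 0.35, adjusted p = 0.033). Its reads differed far less, at 103 and 95.8 with DMSO and 81.0 and 72.7 with I-BET151. The local input level was 1.90 and 1.48 reads with DMSO and 10 and 5 with I-BET151, so most of its fold difference lay in the denominator. Both calls were lost when either DMSO library was left out, where no enhancer was called on fold, and that at ARHGEF19 also without I-BET151 replicate 1 (adjusted p = 0.052).

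The other large falls in fold are a description, since they were chosen for groups that did not overlap. They were at RIPK4, a kinase gene active in epithelia, PXN, which encodes the focal adhesion protein paxillin, VSIR, PEPD, SULT1B1 and ELF3, which encodes an epithelial ETS factor. In reads all 6 were called lower. The reads were worked out from the same folds and p-values by which these were chosen, so their read calls are not separate support. The enhancer in PEPD, a dipeptidase gene, had 258 and 261 scaled reads with DMSO and 75.3 and 64.5 with I-BET151 (3.72-fold lower). The RIPK4 enhancer, the sixth window printed above, had 209.5 and 224, then 86.7 and 91.1 (2.44-fold lower). The enhancer in VSIR, an immune checkpoint gene that overlaps CDH23 at this position, had 252 and 227, then 104 and 101 (2.33-fold lower). In each of these the DMSO and I-BET151 libraries formed separate pairs, and the read calls at AP1M1, PEPD, RIPK4, VSIR and SULT1B1 were kept without any 1 library, whereas those at PXN and ELF3 were lost without either DMSO library (adjusted p from 0.054 to 0.11).

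The 8 largest rises in fold, chosen in the same way, were near HDDC2, FOXA2, PTPRN2, CCDC12, BCR, GREB1, HOXB3 and GRIP2. None passed on fold, with adjusted p from 0.12 to 0.29, and all 8 were called higher in reads. Here, too, the reads come from the folds and p-values used in the choice, and their calls are not separate support. The HDDC2 enhancer (chr6:125363306-125364061, intergenic), the third window printed above, had 175 and 166 scaled reads with DMSO and 338 and 339.9 with I-BET151 (log2 change 0.99 ± 0.07, adjusted p = 0.0011). The HOXB3 enhancer, in an intron of a homeobox gene of anterior patterning, had 117 and 127, then 296 and 299 (1.29 ± 0.08, adjusted p = 0.0010). The enhancer in PTPRN2, a gene for a secretory granule phosphatase family member, had 119 and 116, then 216 and 235. That all I-BET151 folds of these enhancers lay above all DMSO folds follows from the choice, and their reads were separated in the same way. The calls at HDDC2, FOXA2, PTPRN2 and HOXB3 were kept without any 1 library, and those at CCDC12, BCR, GREB1 and GRIP2 were lost without either DMSO library (adjusted p from 0.052 to 0.12).

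Outside the naming rule, and picked after the values were seen, enhancers near BMF, a pro-apoptotic BCL2 family gene, and LIN28B, whose product inhibits let-7, had the largest rises in reads. The BMF enhancer (chr15:40082159-40082718) had 43 and 51 reads before scaling with DMSO and 123 and 100 with I-BET151 (log2 change 1.47 ± 0.15), and the LIN28B enhancer changed by 1.38 ± 0.19. Among the falls was an enhancer near the protocadherin gene PCDH1, with 202 and 207, then 60.4 and 65.5. Its folds of 9.82, 8.27, 7.25 and 8.74 overlapped between the groups, and its input level was 7.00 and 7.66 reads with DMSO and 2.00 and 1.54 with I-BET151.

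**Figure D3:**
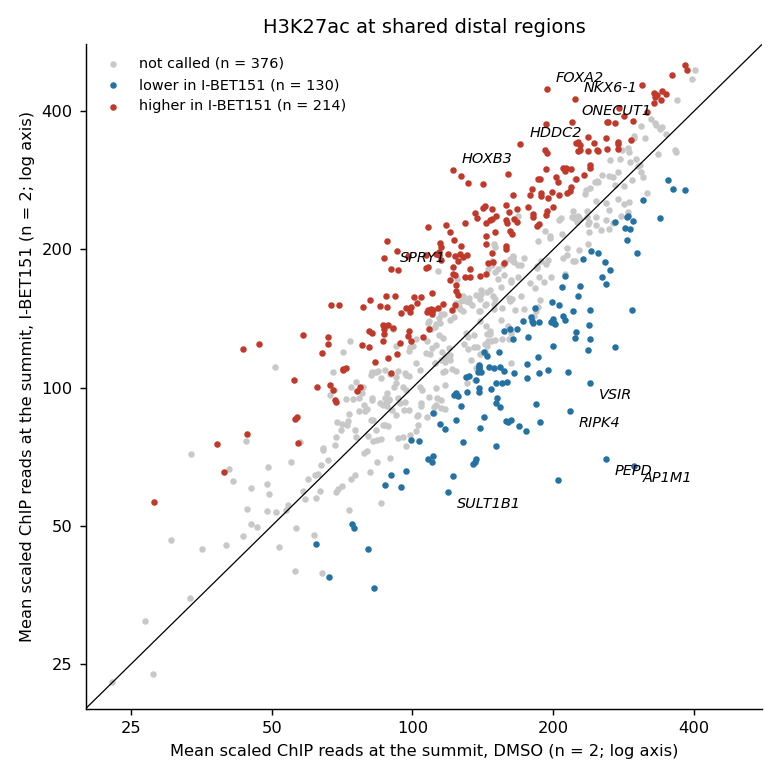
Scaled reads at the summit of each of 720 shared distal enhancers, mean of the 2 DMSO libraries against mean of the 2 I-BET151 libraries, both on log axes, coloured by the call in limma. Of the enhancers, 214 are called higher and 130 lower, with FOXA2, NKX6-1 and ONECUT1 above the diagonal and AP1M1 and PEPD below it.

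Among pancreatic progenitor and endoderm factors, 13 of 48 genes were nearest to 20 enhancers. Of these, 9 (45%) were called higher, 2 (10%) lower and 9 were not called, where 19.1% and 13.5% of all shared regions were called higher and lower. The median read change was 0.35, against 0.12 over all 720 enhancers and 0.06 over all shared regions. None was called on fold, where the list's median change was 0.04. Without either DMSO library, 4 were called higher and none lower in reads.

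FOXA2 encodes a pioneer factor that opens endodermal enhancers. Its enhancer (chr20:22568120-22569275, 15633 bp from the start, in an intron of another gene) had 192 and 196 scaled reads with DMSO and 454 and 438 with I-BET151, 2.30-fold higher (log2 change 1.20 ± 0.07, adjusted p = 0.0010). Its folds were 4.15 and 3.77, then 14.3 and 12.997 (log2 change 1.70 ± 0.33, adjusted p = 0.12). Both measures separated the groups, and with the correction for the limit on reads the change was 1.99. Its input level was 17 reads in both DMSO libraries and 10 in both I-BET151 libraries.

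NKX6-1 encodes the homeobox factor that marks PPs able to form β cells. The enhancer 3720 bp from its start (chr4:84492677-84493865, with the summit in an exon of the gene) had 219 and 225 scaled reads with DMSO and 436 and 415 with I-BET151, 1.91-fold higher (0.94 ± 0.07, adjusted p = 0.0011). Its folds of 7.12 and 5.56 with DMSO and 10.8 and 15.0 with I-BET151 did not overlap either. ONECUT1, also called HNF6, acts early in pancreas formation. Its intronic enhancer (chr15:52784657-52786130) had 219 scaled reads in each DMSO library and 372 and 385 with I-BET151 (1.73-fold, 0.79 ± 0.07, adjusted p = 0.0014), with folds of 14.5, 10.8, 14.3 and 13.3 that overlapped. With the correction, the changes were 1.54 at NKX6-1 and 1.22 at ONECUT1.

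NR5A2 encodes a nuclear receptor of pancreatic and hepatic endoderm. Its enhancer, the seventh window printed above (chr1:200038705-200040125, intronic), had 302 and 316 scaled reads with DMSO and 465 and 447 with I-BET151 (0.56 ± 0.07, adjusted p = 0.0037). The groups were separate in reads, whereas its folds of 6.89, 10.2, 13.4 and 9.73 overlapped. The read call was lost when either DMSO library was left out. Those at FOXA2, NKX6-1 and ONECUT1 were kept in every such test. Enhancers near FOXA1, MNX1, HES1, CDX2 and MEIS1 made up the other calls upward, and the 2 calls downward were both at ELF3 (−0.28 ± 0.08 and −0.65 ± 0.08). Those near HNF4G and SOX6 were not called.

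Notch signalling keeps pancreatic progenitors from premature endocrine differentiation. Of 27 pathway genes, HES1, NOTCH1 and DLL4 had 6 enhancers. Of these, 4 (66.7%) were called higher and none lower, against 19.1% and 13.5% of all shared regions. The median read change was 0.54, and no enhancer of the list was called on fold. The 3 HES1 enhancers are also counted in the pancreatic list above. For the ligand DLL4, the enhancer had 140.0 and 160.5 scaled reads with DMSO and 209.8 and 227 with I-BET151 (0.54 ± 0.09, adjusted p = 0.0086). Its folds of 3.05 and 4.64, then 3.48 and 4.66, overlapped (log2 change 0.02 ± 0.35). For the receptor NOTCH1, the better-ranked of 2 called enhancers (chr9:136596714-136598411, intergenic, 50907 bp from the start) had 159.9 and 159.6, then 314 and 271 (0.87 ± 0.09, adjusted p = 0.0021). Its folds of 9.70 and 6.93, then 13.6 and 10.2, overlapped once centred (log2 change 0.44 ± 0.36). For the target HES1, a repressor, the enhancer printed above (chr3:194140699-194142107) had 250 and 272, then 387 and 371 (0.54 ± 0.08, adjusted p = 0.0051). Its folds of 5.12 and 6.24, then 9.55 and 9.92, did not overlap. The other 2 HES1 enhancers had 18.4 to 121 scaled reads and folds of 5.59 to 21.2. Their reads changed by 0.12 ± 0.32 and 0.02 ± 0.55, with I-BET151 replicates that lay on either side of the DMSO values. Without either DMSO library, 1 of the 6 was called, and the NOTCH1, DLL4 and HES1 enhancers with values above were not (adjusted p from 0.051 to 0.082).

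EGF and FGF were supplied in the medium. Of 33 genes in the EGF, FGF and MAP kinase list, SPRY4, SPRY1, EGFR and FGFR3 had 8 enhancers (median read change 0.29). Of these, 5 (62.5%) were called higher and 2 (25%) lower, against 19.1% and 13.5% of all shared regions. For the receptor EGFR, the intronic enhancer had 110.2 and 139.8 scaled reads with DMSO and 192 and 186 with I-BET151 (0.61 ± 0.12, adjusted p = 0.013). SPRY1 and SPRY4 encode feedback inhibitors of receptor tyrosine kinases. The SPRY1 enhancer, 147733 bp from its start, had 91.3 and 88.9, then 199.6 and 163 (1.00 ± 0.11, adjusted p = 0.0022), and the SPRY4 enhancer changed by 0.33 ± 0.09 (adjusted p = 0.032). The 5 FGFR3 enhancers moved in both directions, with changes from −0.43 to 0.66, 2 called higher and 2 lower. Of the 8 enhancers, none was called without DMSO replicate 1, and only the EGFR enhancer (adjusted p = 0.042) without DMSO replicate 2. At SPRY1 the adjusted p was 0.053 in both tests.

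In the list of YAP, TGFβ, BMP and WNT targets, 2 of 16 enhancers (12.5%) were called higher and 6 (37.5%) lower (7 of 42 genes, median read change −0.12). Of all shared regions, 19.1% were called higher and 13.5% lower. The balance in this list depended on the limit on reads, since with the correction 5 were called higher and 5 lower (31.2% each). With it, 23.2% and 14.8% of all shared regions were called. SMAD6 and SMAD7 encode inhibitory SMADs that dampen BMP and TGFβ signalling. The strongest SMAD6 enhancer (chr15:66842097-66843186, 131040 bp from the start) had 400.1 and 367 scaled reads with DMSO and 265 and 274 with I-BET151 (−0.51 ± 0.08, adjusted p = 0.0062). Of the 6 SMAD6 enhancers, 4 were called lower and 1 higher, and 3 lower with the correction. The SMAD7 enhancer had 303 and 289.9, then 233 and 229 (−0.36 ± 0.07, adjusted p = 0.013), although its folds of 4.35, 4.54, 5.39 and 5.02 ran upward. The TGFβ inhibitor was in the medium of both groups. At ID1, 1 of 3 enhancers was called lower (−0.75 ± 0.17). No enhancer of this list was called without either DMSO library, with adjusted p of 0.073 and 0.054 at the strongest SMAD6 enhancer. SMAD6, SMAD7 and ID1 were named after their values were seen.

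The other lists had few enhancers, and of all shared regions 19.1% were called higher and 13.5% lower. Among AP-1 and immediate early genes (3 of 24), 2 of 6 enhancers were called higher, both at IER2, and 1 was called lower, at JUND (−0.35 ± 0.08, adjusted p = 0.022). Among matrix, adhesion and cytoskeleton genes (4 of 50), 4 of 8 were called higher and 2 lower, and 3 of the 4 called higher were at ACTN4, which encodes an actin crosslinker. KRT19, a keratin of duct epithelium, had 1 enhancer, called lower (−0.51 ± 0.08). In the list of BET proteins and elongation genes (2 of 15), 1 of 2 enhancers was called lower and none higher. It was near SERTAD1, which was put in this list but is not a BET gene (−0.31 ± 0.08, adjusted p = 0.029). Its folds of 5.93 and 6.45 with DMSO, then 5.93 and 9.06 with I-BET151, overlapped (log2 change 0.17 ± 0.35). In these lists no enhancer was called without either DMSO library.

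**Figure D4:**
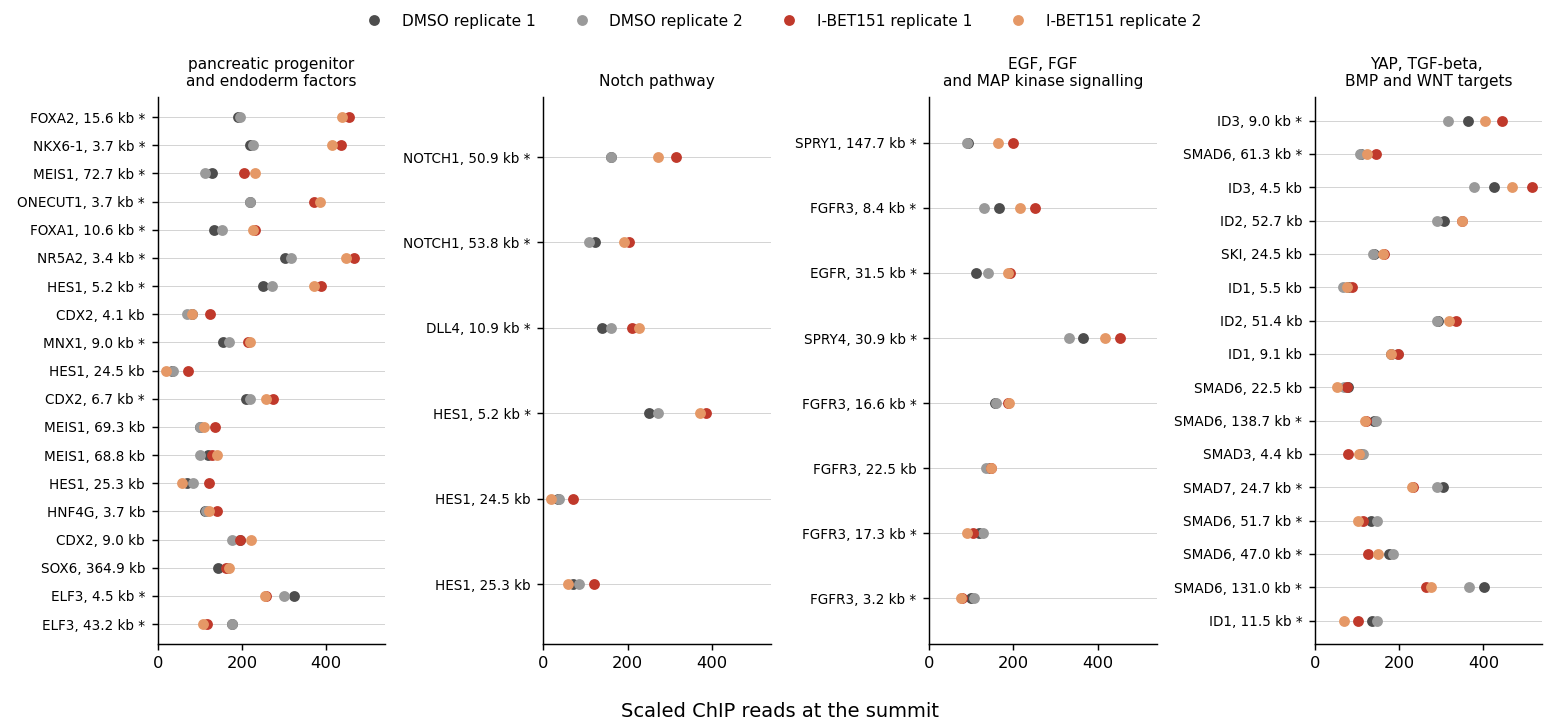
Scaled reads at the summit in each of the 4 libraries (points, linear axis) for enhancers of 4 gene lists, labelled by nearest gene and distance to its protein-coding start in kb and ordered by the ratio of the I-BET151 to the DMSO values. An asterisk marks a call in limma on reads, as at FOXA2 (192 and 196 with DMSO, 454 and 438 with I-BET151), NKX6-1 and NOTCH1.

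The 25 PRDM16 enhancers all had their strongest summit in introns of PRDM16 and spanned 248 kb of chromosome 1. Of these, 17 (68%) were called higher with I-BET151 and none lower, against 19.1% and 13.5% of all shared regions. Their median read change was 0.54, with a range of −0.10 to 1.10. The median over the 25 was 127 and 135 scaled reads in the DMSO libraries and 195 and 183 in the I-BET151 libraries. They lie along 1 gene and are not independent of each other. Calls came from both ends of the group, and 7 enhancers about 150 to 183 kb from the first start, most of which changed little, contained 1 call. The best-ranked (chr1:3340687-3341408) had 226 and 229 scaled reads with DMSO and 359 and 317 with I-BET151 (0.57 ± 0.09, adjusted p = 0.0057), while its folds of 29.4, 19.8, 20.7 and 14.8 overlapped. Without DMSO replicate 1, 5 of the 25 were called higher, and without DMSO replicate 2, 7 were, with none lower.

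**Figure D5:**
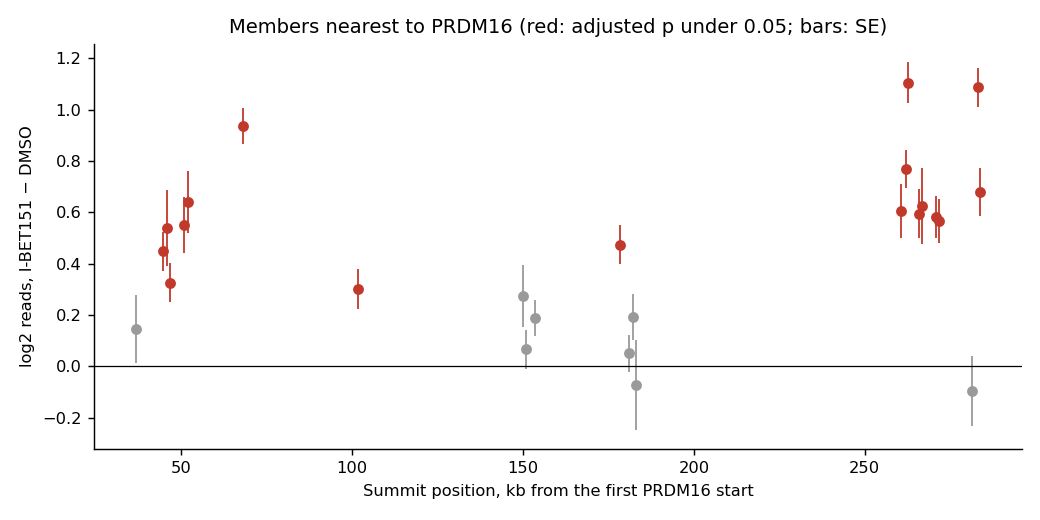
Log2 change in reads with I-BET151 (± SE) at the 25 enhancers in PRDM16 introns, against the distance in kb from the gene's first start. Red points are the 17 called higher and grey points those not called, and the largest change is 1.10.

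Some other genes with 3 or more enhancers had calls in a single direction, and are named here after their values were seen. All 3 enhancers were called higher at each of LIF, a cytokine gene, ROR2, a WNT receptor gene, and SLC6A19, an amino acid transporter gene. At VAV2, which encodes a guanine nucleotide exchange factor, 4 of 6 were called higher and none lower. In contrast, 4 of 9 CXXC5 enhancers were called lower and 1 higher. Of all shared regions, 19.1% were called higher and 13.5% lower. Without DMSO replicate 1 the calls upward were 2 of 6 at VAV2, 2 of 3 at SLC6A19 and 0 at LIF and ROR2, and without DMSO replicate 2 they were 2, 1, 0 and 1, while no CXXC5 enhancer was called in either test. At DDIT4, ZFP36L2, MKNK2 and NEURL1 no enhancer was called in either direction.

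Enhancers that lay close together changed alike. Among 128 pairs of neighbours within 12.5 kb, the read changes had r = 0.55 and the same sign in 74.2% of pairs, with 36 pairs called in the same direction and 5 in opposite directions. For 89 pairs 12.5 to 100 kb apart r was 0.06, and for 480 pairs over 100 kb apart it was 0.04. All pairs are measured in the same 4 libraries, and what close pairs have in common was not tested.

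At 545 enhancers (75.5%) the nearest gene also had a shared promoter region. Across these, which share 371 genes, the changes of enhancer and promoter had a Pearson correlation of 0.35 and a Spearman correlation of 0.35. Of the 168 enhancers called higher, 74 had a promoter called higher and 8 one called lower. Of the 97 called lower, 10 had a promoter called higher and 17 one called lower. These counts are of enhancers, so a promoter recurs for each of its enhancers. The PRDM16 promoter, called higher (0.36, adjusted p = 0.029 in limma on reads), has 17 enhancers called higher. Of all shared promoters, each counted once, 17.7% were called higher and 13.2% lower, so these shares are not on the same footing.

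Read calls differed between kinds of enhancer. With a CpG ratio over 0.6, 37.0% were called higher and 17.1% lower (n = 216), and with a lower ratio 26.6% and 18.5% (n = 504). In introns of coding genes 35.5% were called higher and 15.0% lower, and between genes 25.2% and 19.8%. Over 50 kb from a coding start 36.9% were called higher and 9.93% lower, against 29.5% and 21.5% at 3 to 10 kb. The 4 libraries were used for all of these shares, which are descriptions, and 17 of the 104 intronic calls upward are at PRDM16.

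The response was also described by motif string, although with 2 libraries a group no difference between enhancers with and without a string could pass the exact permutation test, and none is read as present or absent from it. Within 250 bp of the summit, enhancers with the AP-1 string had a fold change 0.17 lower on the log2 scale than those without it, by difference of medians (exact permutation p = 0.33, adjusted over 15 motifs p = 1). In reads this difference was −0.14, and it was 0.27 when the string had to lie within 100 bp. Of the 69 enhancers with the AP-1 string within 250 bp, 21.7% were called higher and 17.4% lower, against 30.5% and 18.1% of those without. With it within 100 bp, 8 of 27 (29.6%) were called higher and 1 (3.70%) lower, against 29.6% and 18.6% without.

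The shares called differed between the windows for the FOXA and SOX strings, too. With the FOXA string within 250 bp (76 enhancers), 34.2% were called higher and 11.8% lower, against 29.1% and 18.7% without. With it within 100 bp, 13 of 24 enhancers (54.2%) were called higher and 1 (4.17%) lower, against 28.8% and 18.5% without. For the SOX string the shares were 34.6% higher and 16.3% lower within 250 bp (104 enhancers), and 45.7% and 8.57% within 100 bp (35 enhancers), against 28.8% higher without it for either window. For the GATA string the windows differed in direction. Within 250 bp (70 enhancers) 31.4% were called higher and 21.4% lower, against 29.45% and 17.6% without. Within 100 bp, 0 of 8 enhancers were called higher and 2 (25%) lower. With the ETS string within 250 bp (57 enhancers), 22.8% were called higher and 17.5% lower, against 30.2% and 18.05% without. With it within 100 bp, 2 of 20 (10%) were called higher and 4 (20%) lower. These shares are descriptions without a test.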

How the data were processed

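H3K27ac was measured by ChIP-seq in 2 DMSO and 2 I-BET151 libraries of PPs, grouped and numbered by their titles, and the 4 input libraries came without peak lists. The authors aligned reads to hg38 with Bowtie2 (2.2.5), removed duplicates with Picard and called peaks per library with MACS2 (2.1.2). The deposited lists give each summit's fold enrichment, a ratio with a pseudocount of 1, and −log10 of its p-value and q-value.

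The members and gene lists were chosen with earlier results of these data known. Peaks were merged and annotated with GENCODE release 44, and sequence came from the hg38 reference. The value of a library was that of its strongest peak in a region. Reads at the summit were solved from each fold and p-value, and at least 99.9% of peaks had 1 solution. Log2 values were centred on the shared regions and tested with limma (3.58.1) and Benjamini-Hochberg adjustment at 0.05, a procedure tested on simulated data. Fold was the planned main measure and reads an alternative. Named were the 10 best-ranked enhancers, the 8 largest changes of fold per direction, and up to 4 per list by rank, with others marked as picked later or given under their list. Alternatives were other merging, distances, thresholds, measures, left-out libraries and a replicate block. Results on some items are not reported here.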

Additional observations from a re-analysis of the deposited data

Results flagged for a closer look

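The input libraries have no list of their own, but the lists carry the local input level that the peak caller used at each summit. At the enhancers its median was 22.9 times the genome-wide input level in DMSO replicate 1, 22.7 times in DMSO replicate 2, 23.6 times in I-BET151 replicate 1 and 24.4 times in I-BET151 replicate 2. These values are singled out because they lie outside the comparisons above. At shared promoters the medians were 42.0 to 49.0 times the genome-wide level.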

How the results depend on the processing

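The number of enhancers was 722, and it was 1153 when distance was measured from protein-coding starts only, of which 28.9% were in introns of coding genes. The change relative to promoters, −0.03 in log2 fold, turned positive without the subtraction of promoters (0.047), with reads (0.063), with −log10 p (1.26) and with reads corrected for the ceiling (0.12), and ranged from −0.11 to 0.041 when 1 library was left out. The cause was not tested.

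On fold, 2 enhancers were called in all, against 0 where −log10 q had to reach 5, 1 with merging within 500 bp, and 0 to 11 when 1 library was left out, where the 11, without I-BET151 replicate 2, were 6 higher (0.831% against 0.165% of all shared regions) and 5 lower (0.693% against 0.174%). Reads gave 344, 361 with the correction for the ceiling, and 62 to 468 when 1 library was left out. In reads the groups did not overlap at 535 enhancers. Covered length ranged from −26.6 to 9.02 kb when 1 library was left out. The AP-1 share within 100 bp was 3.74%.

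Replicate numbers were shared by the groups. Libraries of 1 number did not deviate together (correlations of 0.04 over all shared regions in fold and in reads). With 1 replicate difference per group, this cannot show whether libraries of equal number share an origin. The main tests did not treat them as pairs. With the replicate number as a block, 10 enhancers were called on fold, 3 higher (0.416% against 0.116% of all shared regions) and 7 lower (0.970% against 0.184%), and 387 on reads, 240 higher (33.3% against 21.6%) and 147 lower (20.4% against 14.6%), the change relative to promoters was −0.03, covered length −8.77 kb and the AP-1 difference −0.17, and both pairs ran the same way at 439, 208 higher (28.8% against 28.9%) and 231 lower (32.0% against 29.0%).

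Some enhancers that were not called with the 4 libraries changed sign when 1 library was left out. The read change ranged from −0.42 to 0.66 at HES1 (chr3:194161258-194161678), from −0.0054 to 0.38 at IER5 (chr1:181134839-181135436) and from −0.60 to 0.73 at MYH9. Those at HES1 and MYH9 were called lower without I-BET151 replicate 1 and higher without I-BET151 replicate 2. Alternatives on reads beyond the first were chosen after seeing the data. With 2 libraries a group, small changes could not be resolved.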
